A study of Mus musculus with 20 samples.

Results

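The 10 genes described here, Olig1, Olig2, Slc1a3, Gja1, Prom1, Rgs20, Aqp4, Pdgfra, Cspg4 and Msi1, are markers of radial glia, of oligodendrocyte progenitors and of the astrocytes related to them. Every probe set that the platform annotation assigned to their symbols was taken, which gave 29 of 45037 probe sets, and their values were compared across 20 arrays in 7 groups. The series measured RNA of sympathetic tissue and sphere cultures of mice with a MYCN transgene, a model of neuroblastoma, and of wild-type mice, with 1 Affymetrix Mouse Genome 430 2.0 array per sample. Ganglia came from wild-type mice (4 arrays) and from mice homozygous for the transgene (2 arrays), and tumors from homozygous mice (4 arrays), from homozygous mice that also carried a knockout of Mdk (2 arrays) and from hemizygous mice (4 arrays). The cultures were neurospheres of wild-type mice (2 arrays) and tumorspheres of hemizygous mice (2 arrays). Transgenic and wild-type mice share the strain 129+Ter/SvJcl, which the labels call a mixed background for the transgenic groups. The labels name neither the promoter of the transgene, nor the ages of the mice, nor the tissue from which the neurospheres were grown, nor whether the arrays of a group stand for different animals. The p-values therefore rest on array-to-array spread within groups, part of which may be technical.

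Radial glia are the neural stem cells of the developing central nervous system, and they give rise to neurons, astrocytes and oligodendrocyte progenitors. Oligodendrocyte progenitors divide in response to platelet-derived growth factor, are set up by the Olig transcription factors, and mature into the myelin-forming cells of the brain and spinal cord. Sympathetic ganglia derive from the neural crest, and their glia are satellite and Schwann cells. Several of the 10 genes also mark cells outside the brain: Pdgfra and Cspg4 are known from mesenchymal cells and pericytes, and Gja1 is widely expressed in supporting tissue. In bulk RNA, fewer cells of a type and less RNA per cell cannot be told apart.

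The values are intensities on the authors' linear scale, on which the trimmed mean of each array was 100. Differences are on the scale log2(intensity + 16), on which a difference of 1 stands for 2-fold and changes of dim probe sets are understated. The test took in probe sets that exceeded, on 2 arrays or more, the 40th percentile of the array, which lay at an intensity of 8.58 to 15.8. Of the 29 member probe sets 28 were tested, and 4 of them would not have passed without the neurospheres. Olig2 1416232_at and the Slc1a3 sets 1426341_at and 1440491_at passed on the 2 neurospheres only, so they were high there by the filter itself, and Aqp4 1425382_a_at passed on neurosphere 1 and wild-type ganglion 4. Their values in comparisons with neurospheres are descriptions, and counts are also given over the other 24 sets. Group ranges without overlap, named below, were common over all probe sets tested. Against wild-type ganglia they were 40.1% for homozygous tumors, 38.2% for hemizygous tumors, 25.8% for homozygous ganglia and 39.2% for neurospheres. Of the 28 members these were 13, 7, 7 and 21. Homozygous tumors against homozygous ganglia gave 52.9% and 16 members, and hemizygous against homozygous tumors 17.6% and 6. Tumorspheres gave 38.6% and 14 against hemizygous tumors, and 63.6% and 26 against neurospheres. Some arrays stood apart in ways that touch the results. Wild-type ganglia 1 and 2 differed from 3 and 4 in Olig1, Rgs20 and Msi1 and had more RNA of 12 skeletal muscle genes, whose summed intensity ran from 68.0 to 9175 over the 4 arrays. The 3' to 5' ratio of the GAPDH control probes was 3.37 in neurosphere 1 and 11.5 in neurosphere 2, against 2.56 to 4.49 on the other 18 arrays. That of the beta-actin control probes was 4.36 to 9.14 in wild-type ganglia, 4.68 and 4.02 in homozygous ganglia and 1.96 to 3.28 in the 10 tumors, all of which lay below all ganglia. It was 7.77 and 3.78 in neurospheres 1 and 2 and 2.64 and 2.34 in the tumorspheres. Its part in the differences between tumors and ganglia, and between spheres, was not tested. The Mdk probe set read 42.6 and 35.5 in the tumors with Mdk knockout and 268 to 297 in the homozygous tumors, without knowledge here of its position relative to the deleted part.

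The neurospheres were compared with the ganglia for genes of sympathetic neurons. The 17 sympathetic neuron genes tested, among them Th, Dbh and Hand2, were all called lower in neurospheres than in wild-type ganglia, with a median log2 difference of -6.30. Their summed intensity was 464 to 1038 in the neurospheres, 28810 to 60060 in wild-type ganglia and 17080 to 17910 in the tumorspheres. Th, which encodes tyrosine hydroxylase, read 3097 and 3328 in tumorspheres but 14.1 and 9.72 in neurospheres. Every comparison of the 2 kinds of sphere below is a comparison of cultures that differ in this way as well as in genotype.

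The promoters of 4 genes on which the results below turn are shown as the 250 bases before the annotated start, from RefSeq on the build GRCm38.p6, 5' to 3' on the strand of the gene. Of the 10 genes 6 had an entry in the promoter table (Olig2, Slc1a3, Gja1, Pdgfra, Prom1 and Cspg4). The windows are chr16:91225300-91225549 on the plus strand for Olig2, chr15:8710808-8711057 on the minus strand for Slc1a3, chr10:56377050-56377299 on the plus strand for Gja1 and chr5:75152001-75152250 on the plus strand for Pdgfra. Capitals mark matches on either strand to 4 motifs. The E-box, CANNTG, is the site class of the Olig and MYCN families. A form of it that the search counted within it is CACGTG. The core of Sox factor sites was searched as ACAAT. The TATA box was searched as TATAAA, and the motif of the GC box, known from housekeeping promoters, was GGGCGG.
Olig2: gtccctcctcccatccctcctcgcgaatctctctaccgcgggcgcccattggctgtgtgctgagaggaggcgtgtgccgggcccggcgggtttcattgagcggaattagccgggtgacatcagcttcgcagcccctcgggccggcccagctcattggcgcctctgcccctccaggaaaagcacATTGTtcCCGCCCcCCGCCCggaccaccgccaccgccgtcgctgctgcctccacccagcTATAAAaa
Slc1a3: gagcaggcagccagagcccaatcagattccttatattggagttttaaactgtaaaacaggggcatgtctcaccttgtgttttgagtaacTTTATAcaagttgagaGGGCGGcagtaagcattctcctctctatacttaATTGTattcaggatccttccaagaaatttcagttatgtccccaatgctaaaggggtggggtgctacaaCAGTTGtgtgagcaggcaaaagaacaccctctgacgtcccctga
Gja1: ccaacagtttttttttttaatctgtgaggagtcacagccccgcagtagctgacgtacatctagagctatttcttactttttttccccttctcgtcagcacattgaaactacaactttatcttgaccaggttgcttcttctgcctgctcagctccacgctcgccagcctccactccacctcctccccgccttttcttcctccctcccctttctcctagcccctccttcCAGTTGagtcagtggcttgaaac
Pdgfra: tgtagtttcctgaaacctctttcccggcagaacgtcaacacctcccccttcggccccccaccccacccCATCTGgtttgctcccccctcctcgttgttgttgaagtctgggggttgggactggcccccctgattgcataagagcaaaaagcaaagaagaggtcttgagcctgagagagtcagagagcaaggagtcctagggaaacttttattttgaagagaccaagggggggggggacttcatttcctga
The Olig2 window had a GC content of 66.8% with 22 CpG, against medians of 52.4% and 6 over 32851 promoters. It held no E-box, 1 Sox core, 1 TATA box and 2 GC boxes. The Slc1a3 window held 1 match to each of the 4 motifs, and the Gja1 and Pdgfra windows held 1 E-box each and no match to the others. CACGTG was in none of the 7 member promoters in the table. Of all promoters, 66.2% held an E-box, 6.02% its form CACGTG, 27.7% a Sox core, 12.4% a TATA box and 32.7% a GC box. No motif here was shared by the 4 promoters, and a match is a description of the letters alone.

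Neurospheres had much higher levels of most of the 10 genes than wild-type ganglia. In limma's fit, 21 of the 28 member probe sets were called higher and 1, that of Prom1, was called lower (adjusted p under 0.05). Over the 24 sets that pass the filter without the neurospheres, 18 were called higher and 1 lower. Over all 34922 probe sets tested, 34.4% were called in this comparison, 17.7% higher and 16.8% lower. The median log2 difference was 1.56 over these 24 sets and -0.01 over all probe sets, given as a description.

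**Figure D1:**
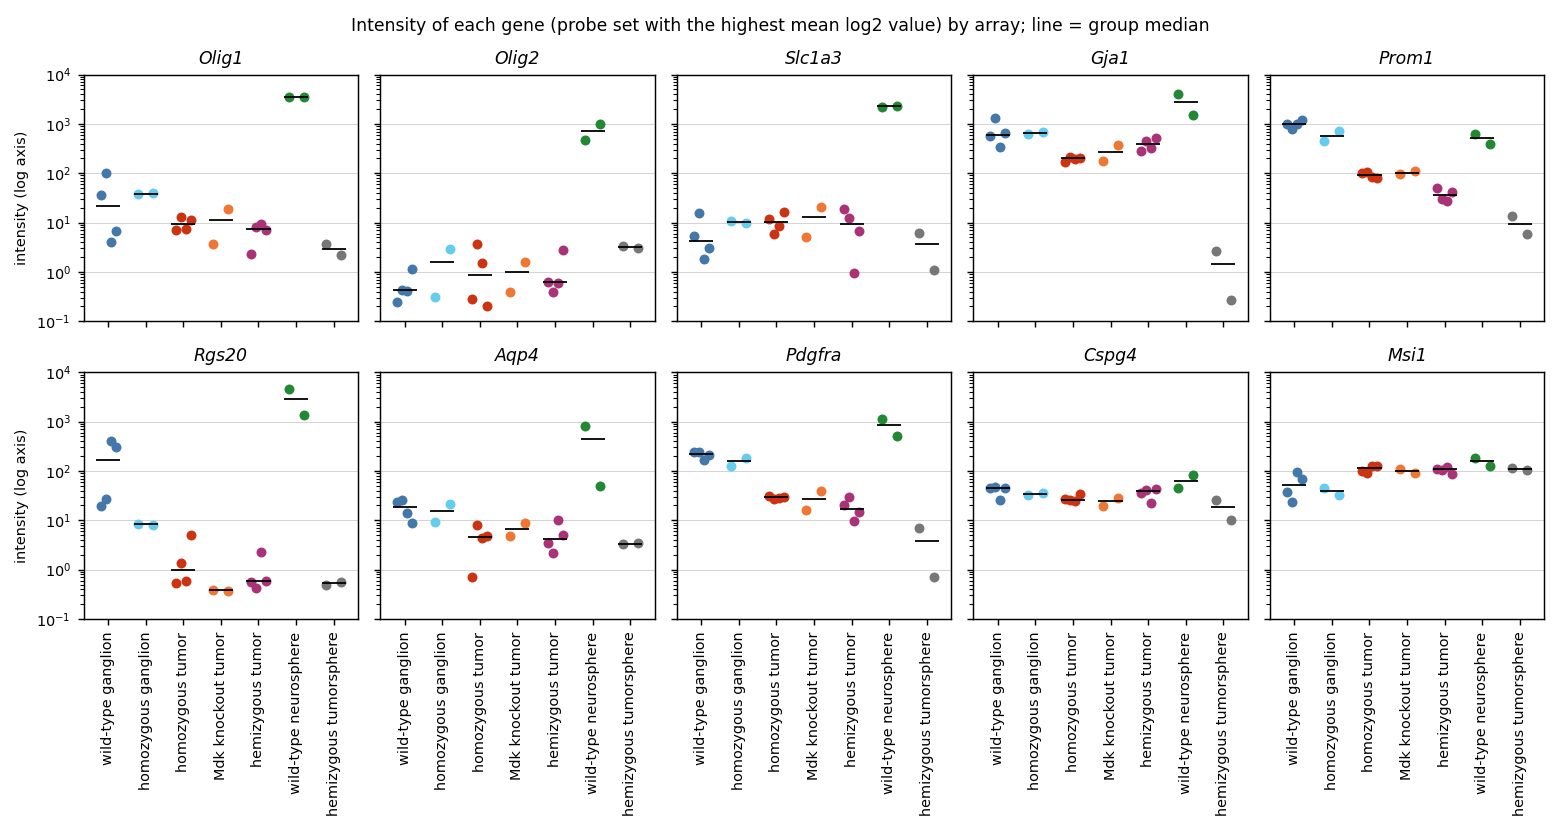
Intensity (log axis) of the probe set with the highest mean log2 value of each gene on each of the 20 arrays, by group, with a line at the group median. Olig1, Olig2 and Slc1a3 were highest in the 2 neurospheres by a wide gap. Rgs20 was highest there by a smaller gap, with 1355 in neurosphere 2 and 396 in wild-type ganglion 3. Prom1 was highest in wild-type ganglia and Msi1 spanned a narrow range.

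Olig1 and Olig2 are basic helix-loop-helix transcription factors that specify the oligodendrocyte lineage, and their genes are neighbours on the same chromosome. Olig1 read 3563 and 3540 in the 2 neurospheres, and 37.0, 99.2, 4.02 and 6.76 in wild-type ganglia 1 to 4. Olig2 read 469.5 and 988 in the neurospheres and 0.249 to 1.12 in wild-type ganglia. The neurospheres lay far above every other array for both genes, and outside them Olig2 ranged from 0.202 to 3.75.

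The log2 difference between neurospheres and wild-type ganglia was 6.45 for Olig1 (SE 0.45, adjusted p = 3.1e-09) and 5.40 for Olig2 (SE 0.21), n = 2 against 4. For Olig2, which passed the filter through the neurospheres, no p-value is given. In the tumorspheres Olig1 read 3.66 and 2.19, and Olig2 read 3.33 and 3.03. Tumorspheres were below neurospheres by 7.56 (SE 0.52) for Olig1 (log2 difference -7.56, adjusted p = 4.1e-09) and by 5.19 (SE 0.25) for Olig2 (log2 difference -5.19).

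Olig1 had a low level in tissue that differed among the ganglia. It read 37.2 and 40.4 in the homozygous ganglia, close to wild-type ganglion 1, and 7.0, 12.7, 7.28 and 11.3 in homozygous tumors. In hemizygous tumors it read 2.36, 8.03, 9.24 and 7.09. All 8 of these tumors lay below wild-type ganglia 1 and 2. The homozygous tumors lay above 3 and 4, and the hemizygous tumors overlapped with them. The difference from wild-type ganglia was not called in homozygous tumors (log2 difference -0.68, SE 0.37, adjusted p = 0.14) or hemizygous tumors (-0.86, SE 0.37, adjusted p = 0.064). Against wild-type ganglia 1 and 2 alone it was called lower in both, by -1.62 (adjusted p = 7.9e-05) and -1.80 (adjusted p = 2.7e-05). It was also called without wild-type ganglion 3 (-1.03 and -1.20) or 4 (-0.96 and -1.14), so the call rests on which ganglia are used. Olig2 gave no such difference: outside the neurospheres no array reached the 40th percentile, and its log2 difference from wild-type ganglia was 0.07 in homozygous and 0.05 in hemizygous tumors (SE 0.17 each).

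Slc1a3 encodes the glutamate transporter GLAST of radial glia and astrocytes. Its probe set with the highest mean log2 value (1443749_x_at) read 2179 and 2351 in the neurospheres, 5.43, 15.7, 1.79 and 3.08 in wild-type ganglia and 6.18 and 1.09 in tumorspheres. On the other arrays it ranged from 0.965 to 20.3, so the neurospheres stood alone. The log2 difference was 6.70 (SE 0.28, adjusted p = 4.6e-12) for neurospheres against wild-type ganglia and -6.87 (SE 0.33, adjusted p = 2.8e-11) for tumorspheres against neurospheres. Of the 6 Slc1a3 probe sets 5 were called in both comparisons, 1 of which (1426341_at) had passed the filter on the neurospheres only. The remaining set, 1440491_at, read 23.9 and 8.87 in the neurospheres and was not called (log2 difference 0.58). No Slc1a3 probe set was called between any tissue groups, with differences from wild-type ganglia between -0.31 and 0.27 in homozygous tumors (limma, smallest adjusted p = 0.17).

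Aqp4 encodes the water channel of astrocyte endfeet. Its probe set 1434449_at read 832 in neurosphere 1 and 49.95 in neurosphere 2, and 23.8, 25.2, 14.0 and 8.88 in wild-type ganglia. Both neurospheres were above every other array, but they differed from each other 16.7-fold, the widest gap among the 29 member probe sets. The log2 difference from wild-type ganglia was 2.83 (SE 0.57, adjusted p = 7e-04), and it was 0.99 (adjusted p = 0.019) without neurosphere 1 and 4.67 (adjusted p = 8.3e-09) without neurosphere 2. A second set, 1425382_a_at, read 60.8 and 7.2 in the neurospheres and differed by 0.98 (SE 0.32), but by 0.12 (adjusted p = 0.78) without neurosphere 1. The third, 1447745_at, was not called (-0.08, SE 0.27, adjusted p = 0.86). In tumorspheres 1434449_at read 3.26 and 3.51, below the neurospheres by a log2 difference of -3.61 (SE 0.66, adjusted p = 0.00032), which missed the threshold when only the compared arrays were fitted (adjusted p = 0.062). Without neurosphere 1 it was -1.77 (adjusted p = 0.00072), and without neurosphere 2 it was -5.45 (adjusted p = 3.4e-09). The homozygous tumors, at 0.715 to 7.89, lay just below all wild-type ganglia and the hemizygous tumors overlapped with them, and neither was called (log2 difference -0.71, SE 0.46, adjusted p = 0.22 in homozygous and -0.67, SE 0.46, adjusted p = 0.25 in hemizygous tumors).

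Rgs20 encodes a regulator that speeds the switching off of G protein signals, with strong expression known in brain. Its probe set 1443694_at read 4484 and 1355 in the neurospheres, and 19.7, 26.7, 396 and 307 in wild-type ganglia 1 to 4. Wild-type ganglia 3 and 4 were thus more than 10 times as high as 1 and 2, and all 4 lay above the homozygous ganglia, which read 8.38 and 8.13. The tumors read 0.366 to 4.94 and the tumorspheres 0.500 and 0.559, below every ganglion.

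Rgs20 was called higher in neurospheres than in wild-type ganglia (log2 difference 4.38, SE 0.71, adjusted p = 8e-05) and lower in tumorspheres than in neurospheres (-7.23, SE 0.82, adjusted p = 1.7e-06). It was called lower in homozygous tumors (-2.75, SE 0.58, adjusted p = 0.00067) and in hemizygous tumors (-2.82, SE 0.58, adjusted p = 0.00049) than in wild-type ganglia, and by -1.14 and -1.21 against wild-type ganglia 1 and 2 alone (adjusted p = 0.0041 and 0.0027). Homozygous against wild-type ganglia gave -2.30 (SE 0.71, adjusted p = 0.074), which was not called. It was called without wild-type ganglion 1 (-2.88, adjusted p = 0.01) or 2 (-2.79, adjusted p = 0.012), and was -3.91 (adjusted p = 6e-07) against wild-type ganglia 3 and 4 alone, but -0.69 (adjusted p = 0.36) against 1 and 2 alone. The set 1421493_a_at was called in the same direction for both neurosphere comparisons (1.11 and -1.36). It was also called lower in homozygous tumors than in wild-type ganglia, but not in hemizygous tumors. The set 1446199_at was called in none of these.

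Pdgfra encodes the receptor for platelet-derived growth factor A that marks oligodendrocyte progenitors and many mesenchymal cells. Its probe set 1421917_at read 1153 and 516 in the neurospheres, and 248, 238, 163 and 207 in wild-type ganglia. The homozygous ganglia read 128 and 183, overlapping the wild-type ganglia. All tumors were lower, at 31.6, 27.0, 28.2 and 30.1 in homozygous tumors, 16.4 and 38.7 in tumors with Mdk knockout and 20.2, 29.8, 9.50 and 14.5 in hemizygous tumors. The tumorspheres read 6.83 and 0.724, the lowest of all groups, so that neurospheres, ganglia, tumors and tumorspheres did not overlap.

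The log2 difference of Pdgfra was 1.79 (SE 0.30, adjusted p = 0.00011) for neurospheres against wild-type ganglia. It was -2.33 (SE 0.24, adjusted p = 3.2e-07) for homozygous tumors and -2.75 (SE 0.24, adjusted p = 3e-08) for hemizygous tumors against wild-type ganglia. Against homozygous ganglia, homozygous tumors were lower by a log2 difference of -1.91 (SE 0.30, adjusted p = 0.00036). Tumorspheres were lower than neurospheres by -5.33 (SE 0.34, adjusted p = 1.7e-09), while the difference from hemizygous tumors was -0.79 (SE 0.30, adjusted p = 0.11) and was called only with a pseudocount of 1 (-2.30, adjusted p = 0.011). The other 2 Pdgfra sets, 1438946_at and 1421916_at, were also called lower in both kinds of tumor, with differences of -0.50 to -0.56. In neurospheres against wild-type ganglia, only 1 of these 2 was called higher.

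Cspg4 encodes the proteoglycan NG2, which marks oligodendrocyte progenitors and pericytes. Its probe set 1423341_at read 122 and 265 in the neurospheres, 58.6, 65.3, 51.6 and 28.1 in wild-type ganglia and 0.483 and 1.04 in tumorspheres. Homozygous tumors read 16.3, 17.5, 18.4 and 20.9 and hemizygous tumors 36.0, 31.5, 30.1 and 36.6, without overlap. Homozygous tumors lay below all wild-type ganglia, and hemizygous tumors overlapped with them.

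Cspg4 1423341_at was called higher in neurospheres than in wild-type ganglia (log2 difference 1.59, SE 0.26, adjusted p = 0.0001) and lower in homozygous tumors (-0.93, SE 0.21, adjusted p = 0.0015). It was called lower in tumorspheres than in neurospheres (-3.55, SE 0.30, adjusted p = 5.9e-08) and than in hemizygous tumors (-1.56, SE 0.26, adjusted p = 0.00074). Hemizygous against homozygous tumors gave 0.53 (SE 0.21, adjusted p = 0.18), which was called only when those arrays alone were fitted (adjusted p = 0.018). The other set, 1450944_at, read 45.0 and 82.4 in neurospheres, 25.7 to 48.1 in wild-type ganglia and 26.3 and 10.2 in tumorspheres. It was called only in tumorspheres against neurospheres (-1.22, SE 0.29, adjusted p = 0.0029), a call lost without tumorsphere 2 (-0.87, adjusted p = 0.072) or with those arrays alone fitted (adjusted p = 0.06), and in the comparison of the sphere and tissue differences below.

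Gja1 encodes connexin 43, the main gap junction protein of astrocytes and radial glia. Its probe set 1437992_x_at read 4095 and 1503 in the neurospheres, 562, 1312, 342 and 644 in wild-type ganglia and 637 and 680 in homozygous ganglia. Homozygous tumors read 165, 217, 197 and 202, tumors with Mdk knockout 175 and 367, and hemizygous tumors 288, 452, 328 and 514. The tumorspheres read 2.67 and 0.270, far below every other array. Homozygous tumors lay below all ganglia and all hemizygous tumors, whereas hemizygous tumors overlapped with wild-type ganglia.

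Tumorspheres were lower in Gja1 than hemizygous tumors by a log2 difference of -4.52 (SE 0.42, adjusted p = 1.2e-06) and than neurospheres by -7.16 (SE 0.48, adjusted p = 2.9e-09). Neurospheres were higher than wild-type ganglia by 1.94 (SE 0.42, adjusted p = 0.0013), a call lost without neurosphere 1 (1.22, adjusted p = 0.069). Homozygous tumors were lower than wild-type ganglia by -1.63 (SE 0.34, adjusted p = 0.00063) and than homozygous ganglia by -1.68 (SE 0.42, adjusted p = 0.0095), the latter lost without homozygous ganglion 1 (adjusted p = 0.064) or 2 (adjusted p = 0.11). Hemizygous tumors against wild-type ganglia gave -0.70 (SE 0.34, adjusted p = 0.099), which was called without wild-type ganglion 3 (-0.99, adjusted p = 0.02), and 3 of the other 5 Gja1 sets were called lower there. Of these 3, 1415800_at lost the call without wild-type ganglion 2 (-0.81, adjusted p = 0.063) or 4 (-0.66, adjusted p = 0.11) and 1438945_x_at without the same arrays (-0.66, adjusted p = 0.11, and -0.92, adjusted p = 0.055). Both also lost it without hemizygous tumor 1 or 3. In neurospheres against wild-type ganglia 1438973_x_at was not called, at 123 and 57.0 against 55.5 to 67.7. Of the 6 Gja1 sets 5 followed the same course in tumorspheres, with differences from hemizygous tumors of -1.31 to -4.52. The other, 1415801_at, read 0.545 to 31.1 over all arrays and was called only in neurospheres against wild-type ganglia (0.76, adjusted p = 0.029), a call lost without neurosphere 1 (0.28, adjusted p = 0.5) or wild-type ganglion 4 (0.68, adjusted p = 0.058).

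Prom1 encodes prominin 1 (CD133), a membrane protein of stem and progenitor cells. Unlike the other genes it had its highest level in wild-type ganglia. It read 974, 782, 991 and 1204 in wild-type ganglia, 456 and 707 in homozygous ganglia and 633 and 395 in neurospheres. The tumors read 99.9, 108, 83.5 and 81.1 in homozygous mice, 94.5 and 110 with Mdk knockout and 49.6, 30.4, 28.0 and 42.6 in hemizygous mice, and the tumorspheres 13.3 and 5.80. Wild-type ganglia, homozygous tumors, hemizygous tumors and tumorspheres formed a descending order without overlap. Shares of all probe sets whose ranges lay apart at these steps are given above.

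The Prom1 log2 difference from wild-type ganglia was -3.19 (SE 0.20, adjusted p = 6.1e-10) in homozygous tumors and -4.23 (SE 0.20, adjusted p = 2.5e-11) in hemizygous tumors. Hemizygous tumors were lower than homozygous tumors by -1.04 (SE 0.20, adjusted p = 0.0047). Tumorspheres were lower than hemizygous tumors by -1.07 (SE 0.24, adjusted p = 0.0087), a call lost without tumorsphere 2 (-0.85, adjusted p = 0.19) or with a pseudocount of 64 (-0.46, adjusted p = 0.14), and lower than neurospheres by -4.35 (SE 0.28, adjusted p = 1.8e-09). Neurospheres were lower than wild-type ganglia by -0.94 (SE 0.24, adjusted p = 0.0054), a call lost without neurosphere 2 (-0.61, adjusted p = 0.13). Homozygous ganglia against wild-type ganglia gave -0.77 (SE 0.24, adjusted p = 0.085), which was not called. It was called without wild-type ganglion 2 (-0.87, adjusted p = 0.031).

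Msi1 encodes musashi 1, an RNA-binding protein of neural stem cells. Its probe set 1452287_at read 185 and 128 in neurospheres, 114 and 104 in tumorspheres and 36.7, 23.2, 95.6 and 68.5 in wild-type ganglia. Homozygous tumors read 102, 88.9, 125 and 124, tumors with Mdk knockout 112 and 91.5, and hemizygous tumors 110, 106, 119 and 87.1. Wild-type ganglia 1, 2 and 4 were below all tumors, and wild-type ganglion 3 was within their range.

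Msi1 was the gene among the 10 that was called higher in tumors than in wild-type ganglia, by 0.91 (SE 0.25, adjusted p = 0.005) in homozygous and 0.87 (SE 0.25, adjusted p = 0.0069) in hemizygous tumors. Against wild-type ganglia 3 and 4 alone these were 0.36 (adjusted p = 0.14) and 0.32 (adjusted p = 0.19), and against 1 and 2 alone 1.46 and 1.41. A second set, 1444306_at, was called higher in both as well, by 1.36 and 0.70, the latter lost without wild-type ganglion 1 (0.64, adjusted p = 0.065) or 2 (0.49, adjusted p = 0.11) or hemizygous tumor 1 (0.64, adjusted p = 0.071) or 2 (0.68, adjusted p = 0.058). Neurospheres were higher than wild-type ganglia by 1.35 (SE 0.30, adjusted p = 0.0017). Tumorspheres against neurospheres gave -0.44 (SE 0.35, adjusted p = 0.37), which was not called. The third set, 1421409_at, was above the 40th percentile on 1 array and was not tested.

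**Figure D2:**
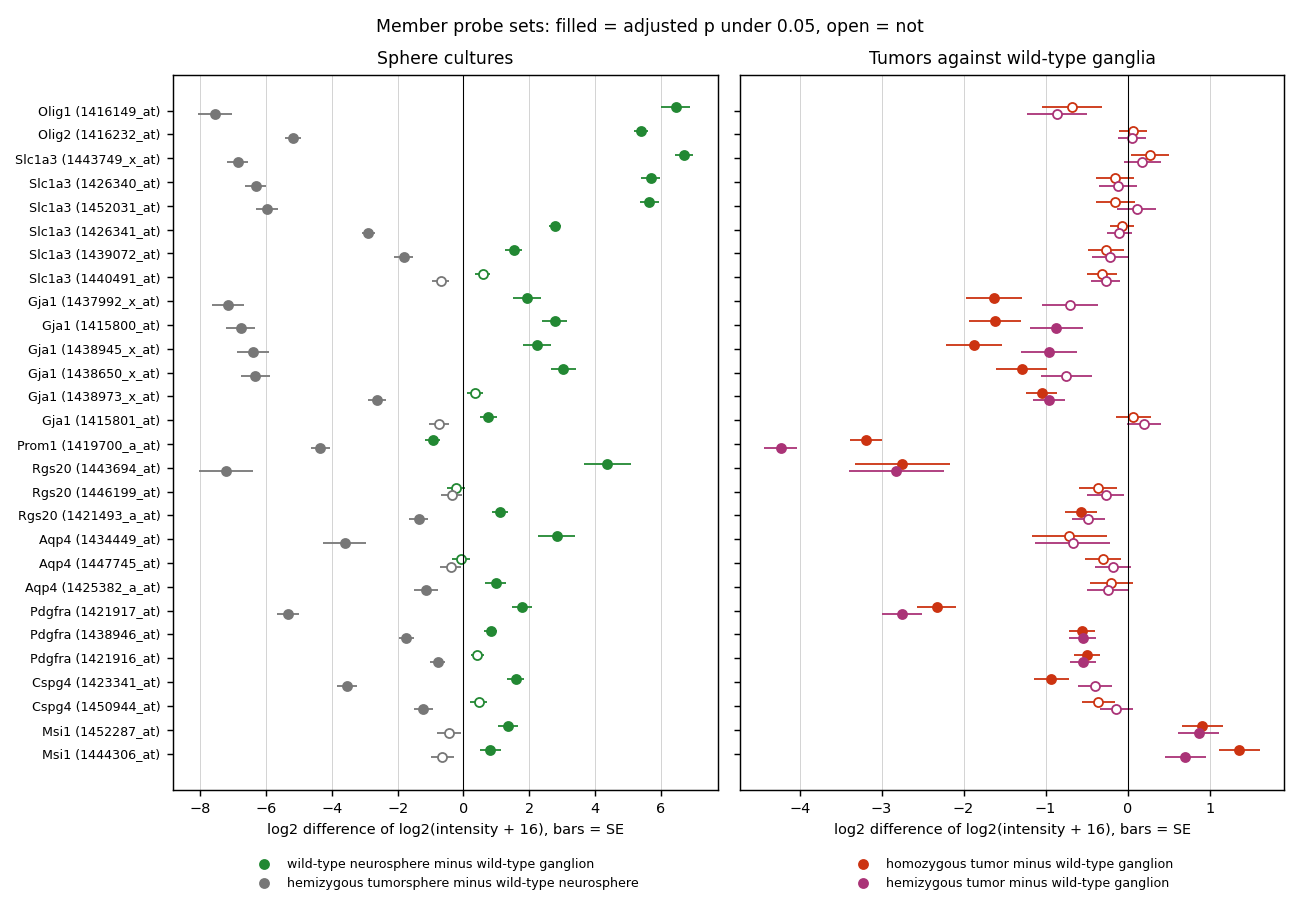
Log2 difference (bars: SE) of the 28 member probe sets tested, with sphere cultures on the left and tumors against wild-type ganglia on the right; filled points had an adjusted p under 0.05. Neurospheres were higher than wild-type ganglia for 21 probe sets and tumorspheres lower than neurospheres for 22, while in tumors 12 (homozygous) and 8 (hemizygous) were lower and the 2 Msi1 sets higher.

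Counted over the probe sets, tumorspheres were lower than neurospheres for 22 of 28 and higher for 0, against 32.2% of all probe sets called in this comparison and 14% called lower. Over the 24 sets that pass the filter without the neurospheres it was 19. Homozygous tumors were called lower than wild-type ganglia for 12 and higher for 2, where 46.7% of all probe sets were called. Hemizygous tumors were called lower for 8 and higher for 2, where 47.4% of all were called. The members called were thus 14 of 28 in homozygous tumors, near the share of all probe sets. They were 10 of 28 in hemizygous tumors, somewhat below that share. These comparisons share the wild-type ganglia or the neurospheres, so they are not independent of each other.

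Tumorspheres were lower than hemizygous tumors for 7 of 28 sets, 5 of Gja1, 1 of Prom1 and 1 of Cspg4, against 9.23% of all probe sets called. Homozygous tumors against homozygous ganglia had 4 lower (2 of Gja1, Prom1 and Pdgfra) and 1 higher (Msi1, log2 difference 1.18, adjusted p = 0.011, and 1.01, adjusted p = 0.17 without homozygous ganglion 2), against 18.8% of all. That count fell to 3 without homozygous ganglion 1 and to 2 without homozygous ganglion 2. Hemizygous against homozygous tumors had 1, that of Prom1, against 5.12% of all.

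No member was called by limma in 2 comparisons. For homozygous against wild-type ganglia it was 0 of 28, with 4 at an unadjusted p under 0.05 (2 of Rgs20, 1 of Prom1 and 1 of Msi1) and 4.34% of all probe sets called. Without wild-type ganglion 1 the count was 1 and without wild-type ganglion 2 it was 2. For the loss of Mdk in homozygous tumors it was 0 of 28 as well, with 0 at an unadjusted p under 0.05 and 0.00286% of all probe sets called. With 2 arrays of tumors with Mdk knockout, the log2 difference was 0.36 (SE 0.42) for Gja1, -0.10 (SE 0.30) for Pdgfra and 0.12 (SE 0.24) for Prom1.

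Whether the gap between transgenic and wild-type samples differed between cultures and tissue was tested as the difference of the 2 differences, tumorspheres minus neurospheres against hemizygous tumors minus wild-type ganglia. The 2 kinds of sphere also differ in sympathetic neuron genes, as given above, so genotype and kind of culture cannot be told apart in it. In limma's fit 20 of the 28 member probe sets were called, each with the lower value in the spheres, against 28.7% of all probe sets called and 15.4% called in that direction. Over the 24 sets that pass without the neurospheres it was 18. The value was -7.05 (SE 0.40) for Slc1a3, -6.70 (SE 0.64) for Olig1, -6.46 (SE 0.59) for Gja1 and -5.23 (SE 0.30) for Olig2. It was -4.42 (SE 1.0) for Rgs20, -2.94 (SE 0.80) for Aqp4 and -2.58 (SE 0.42) for Pdgfra. That of Aqp4 was -1.10 (adjusted p = 0.04) without neurosphere 1 and -4.78 (adjusted p = 1.5e-07) without neurosphere 2. Prom1 was not called, at -0.12 (SE 0.35, adjusted p = 0.83): its gap was -4.35 in spheres and -4.23 in tissue. For Msi1 the value was -1.31 (SE 0.43, adjusted p = 0.027), and the call was lost without neurosphere 1 (-1.06, adjusted p = 0.12) and without tumorsphere 1 (-1.36, adjusted p = 0.064) or 2 (-1.25, adjusted p = 0.093). The Cspg4 set 1450944_at (-1.08, SE 0.35, adjusted p = 0.026) lost the call without neurosphere 2 (-0.74, adjusted p = 0.16) or tumorsphere 2 (-0.74, adjusted p = 0.2).

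**Figure D3:**
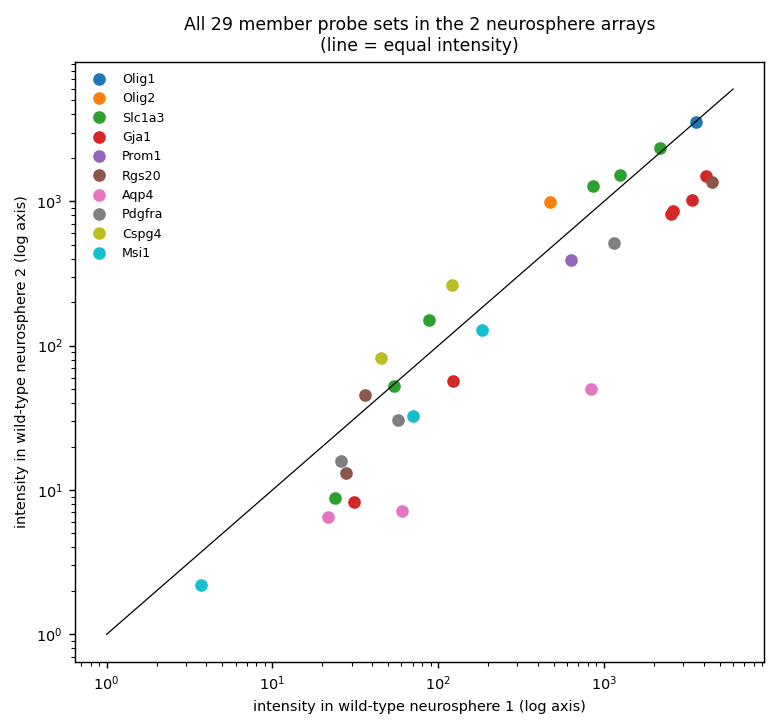
Intensity of each of the 29 member probe sets in wild-type neurosphere 1 (horizontal) and 2 (vertical), both on log axes, with the line of equal intensity. Among the sets of highest mean, those of Gja1, Rgs20, Pdgfra and Aqp4 lay below the line (higher in neurosphere 1) and those of Olig2 and Cspg4 above it. The Rgs20 set 1421493_a_at lay above it, at 36.0 and 45.5.

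The 2 neurosphere arrays differed in the balance of these genes. Olig1 was equal in both (ratio of neurosphere 1 to 2 of 1.01), as was the Slc1a3 set 1443749_x_at to within 1.08-fold, while 1426341_at was 1.70-fold higher in neurosphere 2 and 1440491_at 2.69-fold higher in neurosphere 1. Olig2 was 2.11-fold and Cspg4 (1423341_at) 2.18-fold higher in neurosphere 2. For the sets described above, Pdgfra was 2.24-fold, Gja1 2.73-fold, Rgs20 3.31-fold and Aqp4 16.7-fold higher in neurosphere 1. Over all probe sets tested, 11.4% differed by more than 1 log2 unit between these arrays, and the difference has no replicate check. The epithelial list moved with neurosphere 1 through Ttr, a plasma and choroid plexus transport protein, which read 7007 in neurosphere 1, 4.27 in neurosphere 2 and 55.3 to 2261 in wild-type ganglia. The part of Ttr, and of the GAPDH ratio given above, in these gaps was not tested.

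The same neurospheres carried other genes of these lineages. For the gene lists below, genes that passed the filter through the neurospheres only were not set apart. Counts in comparisons with neurospheres may therefore include genes that were high there by the filter itself. Of 29 radial glia and neural stem cell genes tested, 19 were called higher in neurospheres than in wild-type ganglia and 0 lower, where 38.8% of 15158 genes, each by the probe set with the highest mean, were called. Sox2, a stem cell transcription factor, read 3783 and 3296 in neurospheres and 71.3 to 195 in wild-type ganglia (log2 difference 4.72, SE 0.26, adjusted p = 1.4e-10). Hes5, a Notch target, read 2401 and 722 against 5.6 to 19.4 (5.53, SE 0.36). Sox9, which acts in glial specification, read 586 and 543 against 9.72 to 42.7 (4.02, SE 0.24). Nes, the intermediate filament nestin, read 58.1 and 51.0 against 41.4 to 64.4 and was not called (0.14, SE 0.19, adjusted p = 0.6). In tumorspheres 24 of the 29 were called lower than in neurospheres and 0 higher, where 37.7% of all genes were called. The median log2 difference of the list was 1.78 and -2.88 in the 2 comparisons, against -0.12 and 0.11 over all genes.

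Of 18 oligodendrocyte progenitor genes tested beside the members, 12 were called higher and 2 lower in neurospheres than in wild-type ganglia, where 38.8% of all genes were called. Gpr17, a receptor of committed progenitors, read 221 and 150 in neurospheres and 0.734 to 2.47 in wild-type ganglia (log2 difference 3.51, SE 0.16). Nkx2-2, a transcription factor of the lineage, read 88.9 and 170 against 0.606 to 8.07 (2.85, SE 0.22). Sox10, which oligodendrocytes share with Schwann cells, read 312 and 133 against 160 to 304 and was not called (-0.06, SE 0.37, adjusted p = 0.91). Tmem100 and Gpr37l1 were the 2 called lower. Of the 12 genes of mature oligodendrocytes tested, 0 were called higher and 5 lower (Mal, Aspa, Mag, Omg and Mbp), a share near that of all genes, and Mog read 2.24 and 0.603 in the neurospheres. Of 11 astrocyte genes, 7 were called higher, with Mlc1 among them, and 1 lower. As genes high by the filter were not set apart, the list counts are descriptions. Mlc1 read 398 and 658 against 0.662 to 1.18. Its group means outside the neurospheres were 0.326 to 0.831, below the filter, so it was high in neurospheres by the filter itself. Gfap, the astrocyte filament, read 29.4 and 4.36 against 3.85 to 21.7 and was not called (0.20, SE 0.29, adjusted p = 0.64).

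Partners and relatives of the 10 genes did not all follow them: of 36 tested, 15 were called higher and 11 lower in neurospheres than in wild-type ganglia, where 38.8% of all genes were called. Among Pdgfra ligands, Pdgfa was lower in neurospheres (69.4 and 57.2 against 116 to 166, log2 difference -0.97, SE 0.21, adjusted p = 0.0012) and Pdgfc higher (104 and 99.9 against 22.0 to 67.8, 1.28, SE 0.36, adjusted p = 0.009). The related receptor gene Pdgfrb, a pericyte marker, was lower (18.8 and 1.35 against 134 to 292, -3.09, SE 0.40, adjusted p = 6e-06). Bcan and Ncan, proteoglycans of brain matrix, were higher by 4.16 and 4.99, and Slc1a2, the sister transporter of Slc1a3, by 3.0 (SE 0.28). Tcf4 and Tcf12, which encode dimerization partners of Olig factors, were higher by 2.71 and 2.13, and also higher in homozygous tumors by 2.74 and 1.28. Msi2, the relative of Msi1, read 1195 and 1018 in neurospheres and 787 and 707 in tumorspheres, and was called higher in neurospheres than in wild-type ganglia (2.08, SE 0.45, adjusted p = 0.0013).

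In tumors, Pdgfa was lower than in wild-type ganglia along with Pdgfra, by -1.78 (SE 0.17) in homozygous and -1.53 (SE 0.17) in hemizygous tumors. Hemizygous tumors were higher than homozygous tumors in Pdgfrb (log2 difference 1.68, SE 0.32, adjusted p = 0.0048) and Pdgfb (0.90, SE 0.16, adjusted p = 0.0034). These are single genes picked from the list, in a comparison where 5.12% of all probe sets were called. Of 29 radial glia and stem cell genes, 6 were called higher and 14 lower in homozygous tumors than in wild-type ganglia, and 4 and 14 in hemizygous tumors, where 49.7% and 52.2% of all genes were called. Fabp7, a fatty acid binding protein of radial glia and satellite glia, read 4070 to 5102 in wild-type ganglia, 295 to 415 in homozygous tumors and 3.51 to 60.9 in hemizygous tumors, the order that Prom1 had in these groups.

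Markers of other cell types were counted in the same tissue, where 49.7% (homozygous tumors) and 52.2% (hemizygous tumors) of all genes were called against wild-type ganglia. Of 17 Schwann and satellite cell genes tested, 12 were called lower and 1 higher in each kind of tumor than in wild-type ganglia, and their summed intensity was 12320 to 14350 in wild-type ganglia, 3481 to 3983 in homozygous and 1477 to 3257 in hemizygous tumors. Of 18 mesenchymal and pericyte genes tested, 9 were called lower in homozygous tumors and 6 in hemizygous tumors, with 1 and 3 higher, a share near that of all genes. The summed intensity of the 20 genes of that list was 18570 to 21680 in wild-type ganglia, 16400 to 18970 in homozygous ganglia, 5829 to 7132 in homozygous tumors, 5943 to 10740 in hemizygous tumors, 1206 to 1327 in tumorspheres and 664 to 1151 in neurospheres. In tumorspheres against hemizygous tumors, where Gja1, Prom1 and Cspg4 were lower, 14 of the 18 were called lower and 2 higher, and 12 of 12 macrophage and 10 of 10 endothelial genes were called lower, where 11.8% of all genes were called. The part of these cell types in the differences of the 10 genes in tissue was not tested. In neurospheres the mesenchymal genes Col1a2 (83.1 and 11.6) and Lum (32.6 and 4.36) were far below wild-type ganglia (2347 to 3287 and 1791 to 3113). The part of mesenchymal cells in the levels of Pdgfra, Cspg4 and Gja1 in the neurospheres was not tested either.

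**Figure D4:**
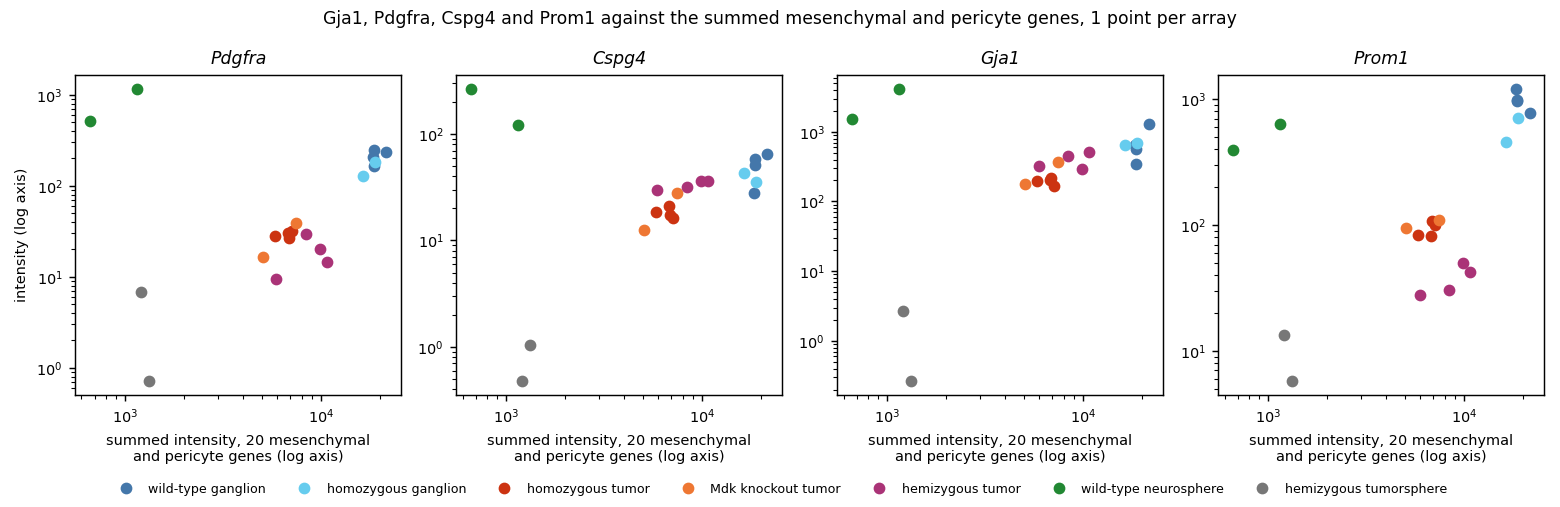
Intensity of Pdgfra, Cspg4 (1423341_at), Gja1 and Prom1 against the summed intensity of 20 mesenchymal and pericyte genes, both on log axes, with 1 point per array. Ganglia (16400 to 21680) lay above tumors (5058 to 10740) on the horizontal axis, and neurospheres and tumorspheres both had low sums (664 to 1327), with the 4 genes higher in neurospheres than in tumorspheres.

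The genes most alike to each member were found by the Pearson correlation of log2 values over the 20 arrays, given as a description. The values are governed by the 2 neurosphere arrays for most members. Olig2 was most like Mlc1 (r = 0.997), Sall3 (0.986) and Lratd1 (0.984), and Slc1a3 most like Mlc1 (0.985), Zic1 (0.983) and Sall3 (0.983). Olig1 was most like Bcas1 (0.964), Wnt5a (0.963) and Car8 (0.962). Pdgfra was most like Prkd1 (0.982), Pag1 (0.978) and Pld1 (0.976), and Prom1 like Pttg1ip (0.971), Adgrg6 (0.971) and Cyp2j9 (0.968). Gja1 was most like Zfp36l1 (0.961), Mef2c (0.960) and Sparcl1 (0.957), and Rgs20 like Phkb (0.975), Atp1b2 (0.970) and Paqr8 (0.969). Aqp4 (Has2, 0.940), Cspg4 (Calcrl, 0.894) and Msi1 (Thrap3, 0.964) had 0, 0 and 1 gene above 0.95.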

How the data were processed

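RNA of 20 samples was measured on 1 array each. Per the labels' protocols, 40 ng of total RNA per sample went through 2 amplification cycles and was labelled with biotin. The deposited values are linear probe set intensities, which the authors scaled so that the mean after trimming 2% at each end is 100 on every array; no source used here names the summarization software. Precision is limited by how few arrays a group has. Of 45101 probe sets, 64 controls were left out, and of the other 45037, 34945 had 1 gene symbol in the platform annotation, 932 several and 9160 none. Symbols of 34741 probe sets matched the RefSeq gene table and 204 kept the annotation's name. Values were tested as log2(intensity + 16) with limma's moderated test (version 3.58.1, R 4.3.3, 2-sided), in 1 fit of 7 group means over the 20 arrays, which share 1 estimate of the spread. P-values were adjusted by the Benjamini-Hochberg method over the 34922 probe sets above the filter, with a threshold of 0.05. The fit was tested on simulated data. Of probe sets changed by 1 log2 unit, 21% to 62% were recovered over the comparisons, and 89% to 98% of those changed by 2. For a change of 1 it was 30% in homozygous against wild-type ganglia and 35% in Mdk knockout against homozygous tumors. False ones made up 1.61% to 7.83% of calls. Samples were grouped by their titles.

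The 10 genes and all gene lists were chosen with earlier results of these data known. The genes to be named were the 10 genes, the 3 most correlated genes of each, from each list up to 4 genes per comparison with the smallest adjusted p, the defining markers of other cell types, and Mdk and Mycn. List genes named outside this rule, such as Nes, Gfap, Sox10, Fabp7, Msi2 and the platelet-derived growth factor genes, were chosen after their values were seen. Genes of a list stand with the probe set of the highest mean log2 value. Alternatives tried were a pseudocount of 1 or 64, quantile normalization or median centring of arrays, no filter or a 60th percentile filter, 1 probe set per gene, only the arrays compared, an intensity trend, subsets of wild-type ganglia, the replicate number as a block, and leaving out each array.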

Additional observations from a re-analysis of the deposited data

Results flagged for a closer look

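Among 84 sets of 4 arrays of 1 group, 8 had an array far from the other 3 (by Dixon's 95% critical value for the gap over the range). Chance gives about 1 in 20, and all but 3 of these values lay below an intensity of 10. They were Olig2 in hemizygous tumor 4 (2.84), the Slc1a3 sets 1426341_at in homozygous tumor 2 (3.67) and 1452031_at in wild-type ganglion 2 (18.9), and the Rgs20 sets 1421493_a_at in homozygous tumor 3 (4.8) and 1443694_at in hemizygous tumor 3 (2.25). The others were Aqp4 1425382_a_at in wild-type ganglion 4 (14.7), Pdgfra 1438946_at in hemizygous tumor 1 (3.97) and Cspg4 1450944_at in wild-type ganglion 3 (25.7).

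By limma's test, the difference between spheres (tumorspheres minus neurospheres) was below that in tissue (hemizygous tumors minus wild-type ganglia) for 20 probe sets. Of the 24 sets that pass the filter without the neurospheres, 18 were called. Olig2 and the Slc1a3 set 1426341_at passed on the neurospheres only, so their values here are descriptions. For Olig1 the value was -6.70 and for Olig2 -5.23. The 5 Slc1a3 sets gave -7.05, -6.19, -6.09, -2.79 and -1.60. The 5 Gja1 sets gave -6.46, -5.91, -5.58, -5.43 and -1.66. Rgs20 gave -4.42 and Aqp4 -2.94. The Pdgfra sets gave -2.58 and -1.20, the Cspg4 sets -3.15 and -1.08, and the Msi1 sets -1.31 and -1.34. Between hemizygous and homozygous tumors, Prom1 differed by -1.04.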

How the results depend on the processing

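No member difference that was called changed its sign under any alternative tried. Tested with 1 probe set per gene, which leaves 10 member sets, the calls were 5 for homozygous and 4 for hemizygous tumors against wild-type ganglia. They were 2 for tumorspheres against hemizygous tumors, 9 for neurospheres against wild-type ganglia, 9 for tumorspheres against neurospheres and 9 for the difference of sphere and tissue differences. Of the 10 sets, 9 pass the filter without the neurospheres and that of Olig2 does not. Of all genes in the main fit, 49.7%, 52.2%, 11.8%, 38.8% and 37.7% were called in the comparisons before the last, in this order. Homozygous against wild-type ganglia went from 0 to 1 with a pseudocount of 64 and to 4 against wild-type ganglia 3 and 4 alone. Fitting only the arrays compared gave 5 calls (from 1) for hemizygous against homozygous tumors and 12 (from 5) for homozygous tumors against homozygous ganglia, and the cause was not tested. Shares of all genes or probe sets are of the main fit, and those under other settings are not given beside the member counts. A change in a member count may thus be shared by all probe sets. Leaving out each array in turn gave 0 to 2 calls for homozygous against wild-type ganglia and 2 to 5 for homozygous tumors against homozygous ganglia. The same gave 13 to 15 and 7 to 13 for homozygous and hemizygous tumors against wild-type ganglia, 17 to 23 for neurospheres against wild-type ganglia and 19 to 24 for tumorspheres against neurospheres. Where a group was left with 1 array, that array is assumed to vary like the other groups. Same-numbered samples did not deviate together (mean correlation -0.01 over 48 pairs, 0.004 over 120 pairs of unlike number), and the numbers were not taken to pair samples. With the replicate block the calls were 14 and 12 for homozygous and hemizygous tumors against wild-type ganglia, 0 for homozygous ganglia, 0 for Mdk knockout, 1 for hemizygous against homozygous tumors, 5 for homozygous tumors against homozygous ganglia, 7 for tumorspheres against hemizygous tumors, 20 for neurospheres, 22 for tumorspheres against neurospheres and 21 for the difference of differences. Over all probe sets, tumorspheres against hemizygous tumors had 1379 higher and 1845 lower, and with median centring 1887 and 1364. Groups of 2 arrays and intensities below the 40th percentile limit what could be called.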

Other observations

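Of 11 cell cycle genes tested, 10 were called higher and 0 lower in neurospheres than in wild-type ganglia, where 38.8% of all genes were called. In hemizygous against homozygous tumors, 6 of 10 endothelial genes were called higher and 0 lower, with a summed intensity of 550 to 820 in hemizygous and 259 to 310 in homozygous tumors. Of all probe sets 5.12% were called in this comparison, a share of probe sets and not of genes. Olig1 in homozygous ganglia was above wild-type ganglia 3 and 4 alone by a log2 difference of 1.36 (limma, adjusted p = 0.00042), whereas it overlapped with wild-type ganglia 1 and 2.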
